A study of Mus musculus with 16 samples.

Results

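The genes described here encode the enzymes and binding proteins that make, shorten, coat and destroy the poly(A) tail and the body of messenger RNAs. Of 44 genes listed for this machinery, 38 were measured, among 17097 genes on the arrays. Each was read by the brightest of the probe sets annotated to it, that is, the one with the highest mean over the 16 arrays. Cnot3, Cnot4, Cnot11, Cstf2, Eif4g1 and Eif4enif1 were not analysed here. The measured genes comprise 7 subunits of the CCR4-NOT deadenylase complex, 4 BTG/TOB adaptors, 3 genes of other deadenylases, 5 poly(A) polymerases, 5 poly(A) binding proteins and their regulators, 8 genes of cleavage and polyadenylation, 5 genes of decapping and 5′ decay, and the cap-binding protein gene Eif4e. The list was drawn up by name and function, with earlier results of these data known.

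The study compared Cpeb2 knockout with wild-type mice, in 4 populations of mammary epithelial cells that were freshly sorted and read on Affymetrix mouse arrays. Knockout mice were Sox2-Cre +/+ ; Cpeb2 -/- and wild-type mice carried the same Cre with Cpeb2 +/+, so every group shares the Cre, which is driven by Sox2 regulatory sequence and acts in the early embryo rather than in mammary cells alone. All 4 mice were females of strain C57BL/6J 129, line DMI, aged 10 weeks, and no treatment was given. Knockout mouse 1 and wild-type mouse 1 had the same parents, and so did the mice numbered 2. Each mouse gave non-clonogenic luminal cells (Sca1+CD49b-), ductal progenitors (Sca1+CD49b+), alveolar progenitors (Sca1-CD49b+) and myoepithelial cells (Epcam low, CD49f high), which makes 2 arrays per genotype and population. Values are log2 expression, and a difference of 1 is a doubling. A gene is said to have passed the test, or to have risen or fallen, at an adjusted p under 0.05 over all genes, and differences carry the standard error (SE) of the fit.

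A new messenger RNA is cut near its 3′ end and given a poly(A) tail in the nucleus, and the tail, coated by poly(A) binding proteins, protects the RNA and aids its translation. Deadenylases of the PAN2-PAN3 and CCR4-NOT complexes shorten the tail, after which the cap is removed by DCP2 and the RNA is degraded from its 5′ end by XRN1. CPEB proteins bind short elements in the 3′ untranslated region of their target RNAs and adjust tail length: in frog oocytes CPEB recruits the deadenylase PARN and the cytoplasmic poly(A) polymerase GLD2, named Tent2 in the mouse. Cpeb2, the deleted gene, was lower in knockout by -0.92 ± 0.21 in the mean of the populations (adjusted p = 0.0201). Its wild-type and knockout means were 8.49 and 7.04 in non-clonogenic luminal cells and 7.94 and 6.87 in ductal progenitors. They were 5.52 and 5.13 in alveolar progenitors and 5.72 and 4.98 in myoepithelial cells. Wild-type Cpeb2 was already low in these last cells and in alveolar progenitors, so the mean includes populations with little Cpeb2 signal. Differences of Cpeb1, Cpeb3 and Cpeb4 were 0.16 ± 0.10, 0.09 ± 0.08 and 0.08 ± 0.20, none past the test for the brightest probe set of each. One of the other 2 probe sets of Cpeb4 passed (0.75 ± 0.16, adjusted p = 0.0148 over all probe sets), and the other did not (0.10 ± 0.17). The sources do not place the Cpeb2 probe set inside or outside the deleted region, so this reading does not check the knockout by itself.

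Promoter windows are shown for Parn, whose knockout difference was the largest of the 38, and for Tob1, Btg1 and Btg2, whose levels set the populations apart. Each runs from 250 bases before to 50 bases after the start that RefSeq's promoter table (GRCm38.p6) takes for the gene, 5′ to 3′ on the gene's strand. For Tob1 and Parn that start lies inside the outermost limits of the annotated gene. Capitals mark matches, on either strand, to the ETS-type motif CCGGAAG, the CCAAT box (CCAAT) or the cyclic AMP response element TGACGTCA.
Parn, chr16:13668121-13668420, minus strand: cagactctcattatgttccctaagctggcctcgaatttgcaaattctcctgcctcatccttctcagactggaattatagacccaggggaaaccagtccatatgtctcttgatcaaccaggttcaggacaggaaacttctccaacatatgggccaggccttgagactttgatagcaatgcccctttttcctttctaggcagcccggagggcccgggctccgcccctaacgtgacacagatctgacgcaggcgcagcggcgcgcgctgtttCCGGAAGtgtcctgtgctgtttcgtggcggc
Tob1, chr11:94211204-94211503, plus strand: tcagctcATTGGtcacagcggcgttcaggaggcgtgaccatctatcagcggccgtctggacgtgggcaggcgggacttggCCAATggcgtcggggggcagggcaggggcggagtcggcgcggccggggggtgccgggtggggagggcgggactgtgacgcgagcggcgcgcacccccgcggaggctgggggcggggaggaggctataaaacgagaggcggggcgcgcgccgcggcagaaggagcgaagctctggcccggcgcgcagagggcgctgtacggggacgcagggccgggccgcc
Btg1, chr10:96616751-96617050, plus strand: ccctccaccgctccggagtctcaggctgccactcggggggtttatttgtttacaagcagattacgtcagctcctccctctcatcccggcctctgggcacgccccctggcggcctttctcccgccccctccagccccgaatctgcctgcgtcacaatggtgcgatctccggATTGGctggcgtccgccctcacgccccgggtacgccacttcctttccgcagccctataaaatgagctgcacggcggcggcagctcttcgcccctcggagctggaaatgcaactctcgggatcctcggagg
Btg2, chr1:134079106-134079405, minus strand: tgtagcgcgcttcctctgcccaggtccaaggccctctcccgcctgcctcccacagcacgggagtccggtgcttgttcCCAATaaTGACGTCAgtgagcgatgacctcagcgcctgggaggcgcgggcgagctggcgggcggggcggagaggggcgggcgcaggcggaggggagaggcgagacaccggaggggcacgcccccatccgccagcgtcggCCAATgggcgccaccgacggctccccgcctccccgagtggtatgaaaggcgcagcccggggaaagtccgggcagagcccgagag
Parn has 1 ETS-type match, Tob1 has 2 CCAAT boxes, Btg1 has 1, and Btg2 has 2 and the cyclic AMP element, which overlaps neither. Windows were at hand for 32 of the 38 genes and for 13605 genes in all, and none was used for Cnot1, Cnot7, Pabpc1, Paip2, Cpsf1 and Dcp2. The ETS-type motif was in 8 of the 32 (25%) and in 15.0% of all windows, and the CCAAT box in 10 (31.2%) and 42.3%. The cyclic AMP element was in 1 (3.1%) and 2.9%, and the YY1-type motif AAGATGG in 3 (9.4%) and 7.6%. An E2F-type motif, spelled TTTCCCGC, TTTGGCGC, TTTCGCGC or TTTGCCGC, was in 0 of 32 and in 3.8% of all windows. These are letter matches, searched on both strands, and not binding sites.

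The lowest reading of any of the 38 genes on any array was 5.76, for Cpsf6 in knockout ductal progenitors. This reading lay above the lower quartile of all probe sets (5.13) but below the median of every array. A reading above the quartile is not a detection call. Array medians over all probe sets ran from 6.35 to 6.40, and replicate arrays correlated at r = 0.975 to 0.991 across probe sets. The median of the 38 genes ran from 8.58 to 9.26 over the arrays. Marker genes fitted the sort labels: 9 of 9 measured myoepithelial markers were higher and 7 of 7 luminal markers lower in myoepithelial than in luminal cells. Markers of other cell types were higher there too: 5 of 5 endothelial (median difference 0.78), 2 of 2 pericyte (0.96) and 2 of 6 fibroblast markers (0.20). In sorted bulk samples, fewer cells of a type and less RNA per cell cannot be told apart.

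**Figure D1:**
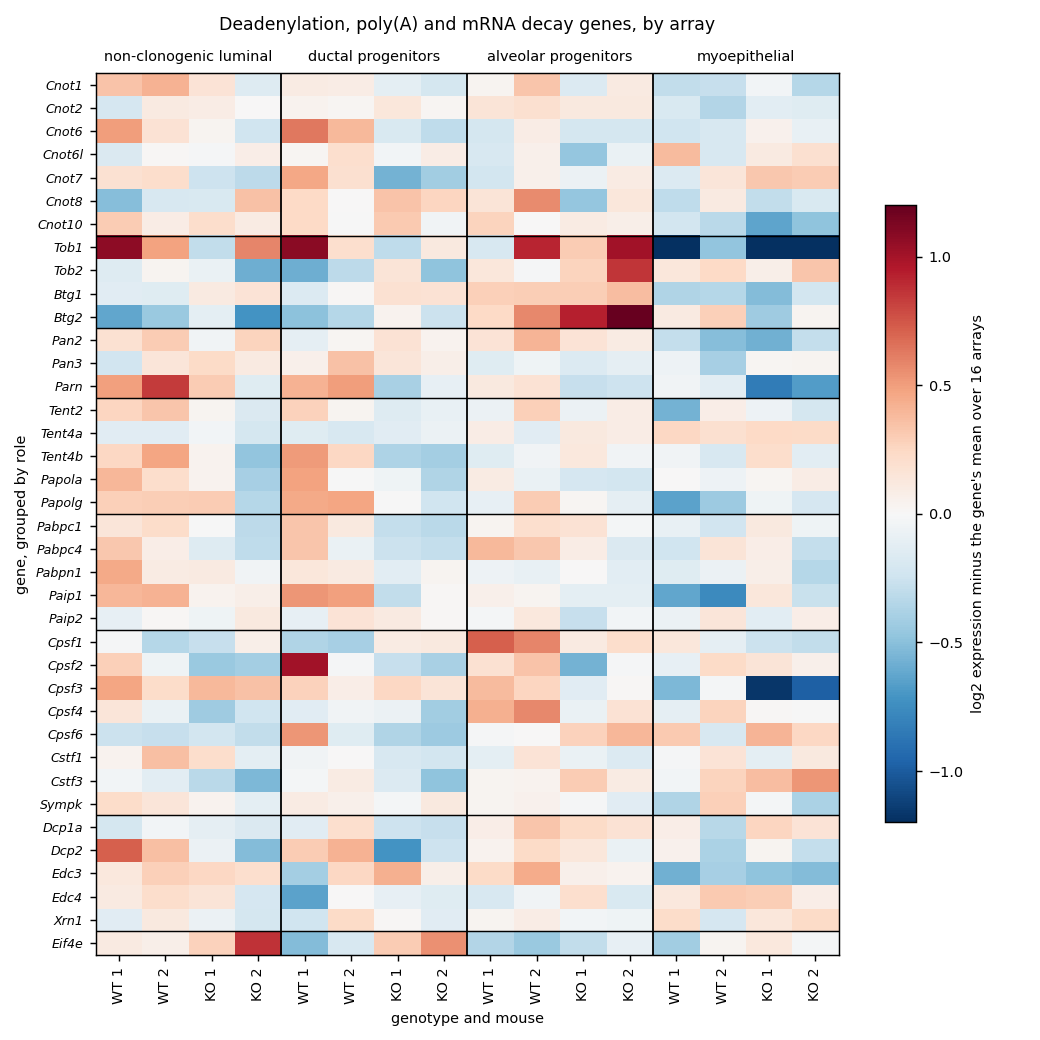
Log2 expression of the 38 genes in each of the 16 arrays, as the difference from the gene's mean over all arrays; rows are genes grouped by role, columns are arrays grouped by population, with wild-type (WT) and knockout (KO) mice 1 and 2. Tob1 is lowest in the myoepithelial arrays, and Btg2 is highest on average in the alveolar progenitor arrays. Values past the ends of the colour scale take its end colour.

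Knockout and wild type were first compared in the mean of the 4 populations, to ask which of these genes differ on average over them. A gene can pass this test through some of the populations alone. The deadenylase gene Parn fell, the decapping enzyme gene Dcp2 fell, and the cap-binding gene Eif4e rose. So 2 of 38 fell, where 7.04% of all genes fell, and 1 of 38 rose, where 3.18% of all genes did. On average 27 of the 38 were lower in knockout, with a median difference of -0.10, against 41.9% of all genes lower and a median of 0.02. By role, 6 of the 7 CCR4-NOT subunits, 5 of the 5 poly(A) binding genes and 7 of the 8 cleavage genes were lower on average, and 3 of the 4 BTG/TOB adaptors were higher. No gene of these roles passed the test, and these counts include differences smaller than their error, such as Cnot8 (-0.01 ± 0.13) and Paip2 (-0.04 ± 0.07). The mean level of 29 cell division genes ran from 7.05 to 9.42 over the wild-type arrays and from 6.28 to 6.93 over the knockout arrays, and 28 of the 29 fell (median difference -2.34); their part in the results below was not tested.

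Parn encodes a poly(A)-specific exonuclease that also binds the cap. In non-clonogenic luminal cells it read 10.06 and 10.41 in wild-type mice 1 and 2 and 9.88 and 9.43 in knockout mice 1 and 2. In ductal progenitors the wild-type arrays read 9.99 and 10.07 and the knockout arrays 9.18 and 9.47. In alveolar progenitors they read 9.69 and 9.75 against 9.30 and 9.32, and in myoepithelial cells 9.53 and 9.45 against 8.73 and 8.90. The genotypes did not overlap within any of the 4 populations. Over all genes, 50.8% did not overlap in non-clonogenic luminal cells and 60.4% in ductal progenitors. The share was not taken in the other populations. Knockout was lower in 8 of 8 same-parent comparisons, which are 2 pairs of mice read in 4 populations and not 8 independent pairs. The mean difference was -0.59 ± 0.10 (1.51-fold, adjusted p = 0.0041), and the differences in single populations were -0.58 ± 0.19, -0.71 ± 0.19, -0.41 ± 0.19 and -0.67 ± 0.19 in the order just given. It passed the test in 19 of 20 fits that left out a mouse or an array, the exception being the fit without knockout mouse 2. This probe set is of the x type, whose probes can match other transcripts. A second, dimmer probe set of Parn (mean 6.65) differed by -0.36 ± 0.11 (adjusted p = 0.0604 over all probe sets), the same direction without passing.

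Dcp2, the catalytic subunit that removes the cap, differed mostly in 2 of the populations. Wild-type mice 1 and 2 read 9.51 and 9.16 in non-clonogenic luminal cells and 9.10 and 9.21 in ductal progenitors, and knockout mice read 8.73 and 8.28, and 8.08 and 8.55. In alveolar progenitors wild-type arrays read 8.84 and 9.03 and knockout arrays 8.93 and 8.72, and in myoepithelial cells 8.85 and 8.42 against 8.83 and 8.51. The genotypes were apart in the Sca1+ populations, as they were for 50.8% and 60.4% of all genes there, and overlapped in the others. The mean difference was -0.43 ± 0.13 (adjusted p = 0.0492), at the edge of the threshold, and it passed in 3 of 20 leave-out fits. A dimmer probe set of Dcp2 (mean 6.69) did not pass, at -0.22 ± 0.13 in the mean, -0.06 ± 0.24 in non-clonogenic luminal cells and -0.36 ± 0.24 in ductal progenitors.

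Eif4e, the protein that binds the cap to start translation, went the other way. Its wild-type arrays read 7.24 and 7.20 in non-clonogenic luminal cells, 6.61 and 6.94 in ductal progenitors, 6.78 and 6.69 in alveolar progenitors and 6.71 and 7.16 in myoepithelial cells. Knockout arrays read 7.41 and 8.00, 7.44 and 7.68, 6.84 and 7.03, and 7.26 and 7.11 in the same order. Knockout was higher in 7 of 8 same-parent comparisons, and only the myoepithelial arrays overlapped. In the Sca1+ populations the genotypes were apart for 50.8% and 60.4% of all genes. The mean difference was 0.43 ± 0.11 (adjusted p = 0.0289), and it passed in 11 of 20 leave-out fits. Eif4e, like Parn and Dcp2, lost its call without knockout mouse 2, when 0 of 38 genes passed and the call rate over all genes fell to 1.63%. A single gene of the 38 passed without wild-type mouse 1, and likewise without its non-clonogenic or ductal array, without the myoepithelial array of knockout mouse 1, the alveolar array of knockout mouse 2, or the non-clonogenic or alveolar array of wild-type mouse 2. The count was 7 without the non-clonogenic array of knockout mouse 1 and 6 without the ductal array of wild-type mouse 2.

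With the parent pair as a block, the comparison of knockout with wild type called 9 of the 38 genes in place of 3, and 20.1% of all genes. The 6 added were all lower in knockout: the deadenylase gene Cnot6 (-0.29 ± 0.07, adjusted p = 0.0197), the nuclear poly(A) polymerase gene Papola (-0.27 ± 0.07, 0.0231), the poly(A) binding protein genes Pabpc4 (-0.32 ± 0.08, 0.0223) and Pabpc1 (-0.18 ± 0.06, 0.044), and the cleavage factor genes Cpsf2 (-0.47 ± 0.13, 0.0293) and Cpsf3 (-0.28 ± 0.09, 0.0421). Cpsf2 is the second largest fall of the 38 without the block (-0.47 ± 0.15, adjusted p = 0.07).

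**Figure D2:**
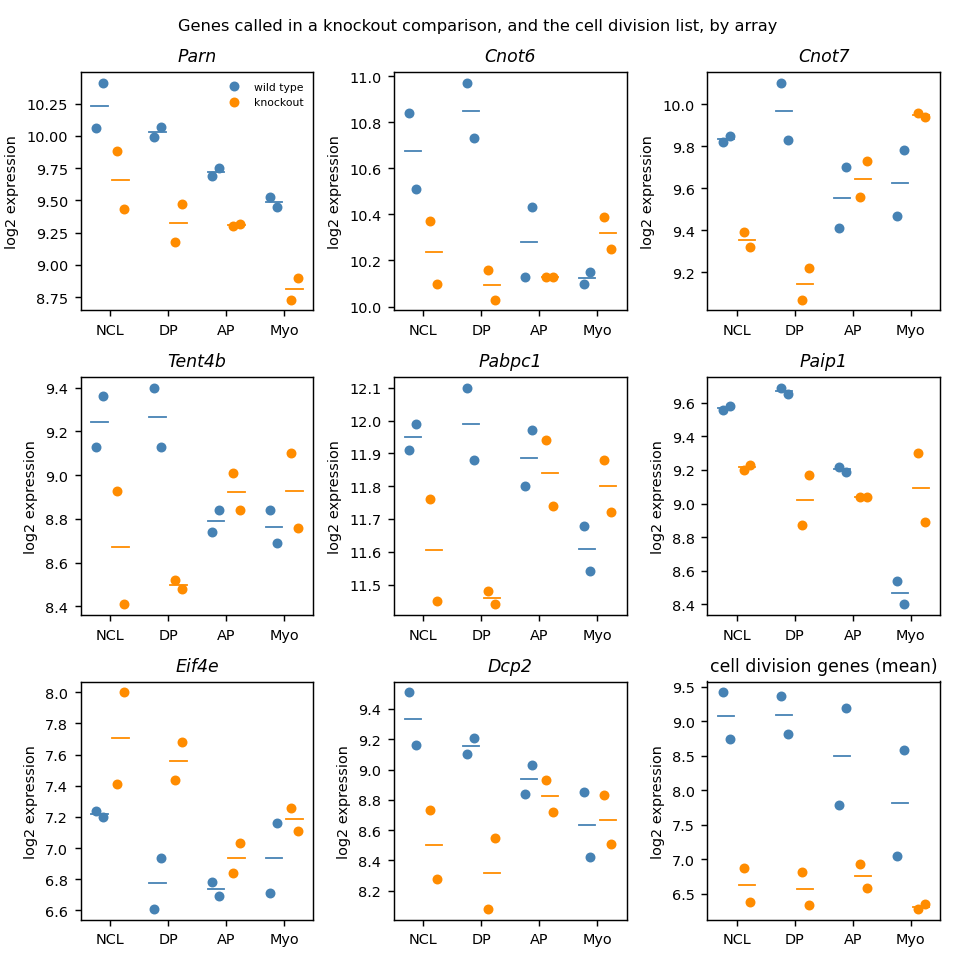
Log2 expression by array of the 8 genes that passed a knockout test, and the mean of 29 cell division genes, in non-clonogenic luminal cells (NCL), ductal progenitors (DP), alveolar progenitors (AP) and myoepithelial cells (Myo); points are arrays, lines are means of 2, and each panel has its own axis, which does not start at 0. In ductal progenitors the 2 knockout points lie apart from the 2 wild-type points in all 9 panels. For the 7 genes called there this follows largely from the call, and the genotypes did not overlap there for 60.4% of all genes.

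Ductal progenitors had the most calls of the single populations. In them Cnot7, Cnot6, Parn, Tent4b, Paip1 and Pabpc1 fell and Eif4e rose: 6 of 38 genes fell, against 4.35% of all genes, and 1 of 38 rose, against 3.09%. The median difference of the 38 was -0.16, and that of all genes 0.08. The knockout and wild-type arrays did not overlap for these 7, as follows largely from the call, nor for 60.4% of all genes.

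Both catalytic types of the CCR4-NOT complex were among the falls. Cnot7, a nuclease of the DEDD type, read 10.1 and 9.83 in wild-type mice 1 and 2 and 9.07 and 9.22 in knockout mice, a difference of -0.82 ± 0.17 (1.76-fold, adjusted p = 0.0223). Cnot6, of the exonuclease-endonuclease-phosphatase type, read 10.97 and 10.73 against 10.16 and 10.03 (-0.75 ± 0.17, adjusted p = 0.0267). Their close relatives did not pass: Cnot8 read 8.58 and 8.35 in wild type and 8.69 and 8.60 in knockout (0.18 ± 0.25), and Cnot6l 10.11 and 10.29 against 10.05 and 10.18 (-0.08 ± 0.21). Whether relatives differ from each other in response was not tested. The scaffold gene Cnot1 differed by -0.26 ± 0.18. The other probe sets of Cnot7 differed by -0.13 ± 0.20 and -0.44 ± 0.21 and did not pass. Of the other 3 probe sets of Cnot6, 1 passed (-1.19 ± 0.33) and those at -0.89 ± 0.38 and -0.08 ± 0.28 did not.

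The deadenylase gene Parn, with the array values given above, differed by -0.71 ± 0.19 here (adjusted p = 0.0439), and its second probe set by -0.26 ± 0.21. Among the poly(A) polymerases Tent4b fell. It adds short tails to nuclear RNAs and read 9.40 and 9.13 in wild-type and 8.52 and 8.48 in knockout arrays (-0.77 ± 0.20, adjusted p = 0.0409). Its relative Tent4a read 8.13 and 8.08 against 8.14 and 8.20 (0.07 ± 0.14), with both genotypes near one level. Papola, the main nuclear polymerase, read 11.29 and 10.80 against 10.76 and 10.45, apart but not past the test (adjusted p = 0.157), and Papolg 7.74 and 7.76 against 7.28 and 7.05 (-0.58 ± 0.20, adjusted p = 0.0862). Tent2, the polymerase tied to CPEB in frog oocytes, differed by -0.27 ± 0.21.

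Pabpc1, the main cytoplasmic poly(A) binding protein, read 12.1 and 11.88 in wild type and 11.48 and 11.44 in knockout (-0.53 ± 0.13, adjusted p = 0.0387). Paip1, which binds it and stimulates translation, read 9.69 and 9.65 against 8.87 and 9.17 (-0.65 ± 0.17, adjusted p = 0.0418). Both knockout arrays lay below both wild-type arrays for each gene. Paip2, an inhibitor of the same protein, read 11.36 and 11.62 against 11.57 and 11.47, overlapping, and Pabpc4 read 10.22 and 9.81 against 9.63 and 9.60 without passing (-0.40 ± 0.20). The dim second probe set of Pabpc1 (mean 6.44) differed by 0.09 ± 0.26, and the other 2 of Paip1 by -0.96 ± 0.58 and 0.29 ± 0.22.

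Eif4e read 6.61 and 6.94 in wild-type and 7.44 and 7.68 in knockout ductal progenitors (0.79 ± 0.21, adjusted p = 0.0438). The largest differences that did not pass were Dcp2 (-0.84 ± 0.24, adjusted p = 0.0527) and Cpsf2 (-0.83 ± 0.29, adjusted p = 0.0893) on the lower side, and Cpsf1 (0.49 ± 0.17, adjusted p = 0.0868) on the higher side. With the parent pair as a block Dcp2 passed too (adjusted p = 0.0442).

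These 7 calls depended on single animals. Without knockout mouse 1, knockout mouse 2 or wild-type mouse 1, or without the ductal array of any of those 3 mice, 0 of 38 genes passed, and the call rate over all genes was 0.0994% to 1.89% in those fits. The count was 9 without the ductal array of wild-type mouse 2. It was 2 or 3 without any single alveolar array or without either knockout myoepithelial array. It was 0 when the fit held the 4 ductal arrays alone (0.404% of all genes) and 3 with the mean of all probe sets of a gene. Other measures moved with genotype in the same 4 arrays. The mean level of 29 cell division genes was 9.36 and 8.81 in wild-type and 6.81 and 6.34 in knockout arrays, and 22 of the 29 fell (median difference -2.79). The hormone-sensing markers were higher in knockout, with 4 of 7 past the test and a mean level of 11.70 and 11.60 against 10.47 and 10.68. Of the alveolar progenitor markers 2 of 9 fell (median difference -0.34), with a mean level of 9.36 and 8.89 in wild-type and 8.50 and 8.85 in knockout arrays. The fibroblast markers averaged 8.12 and 6.95 in wild type and 6.68 and 6.47 in knockout, with 1 of 6 lower and 2 of 6 under the lower quartile in every array. The excess of the 3′ over the middle probe set, a sign of RNA integrity, was 0.60 and 0.39 against 0.15 and 0.12 for Gapdh. The part of these measures in the 7 calls was not tested.

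**Figure D3:**
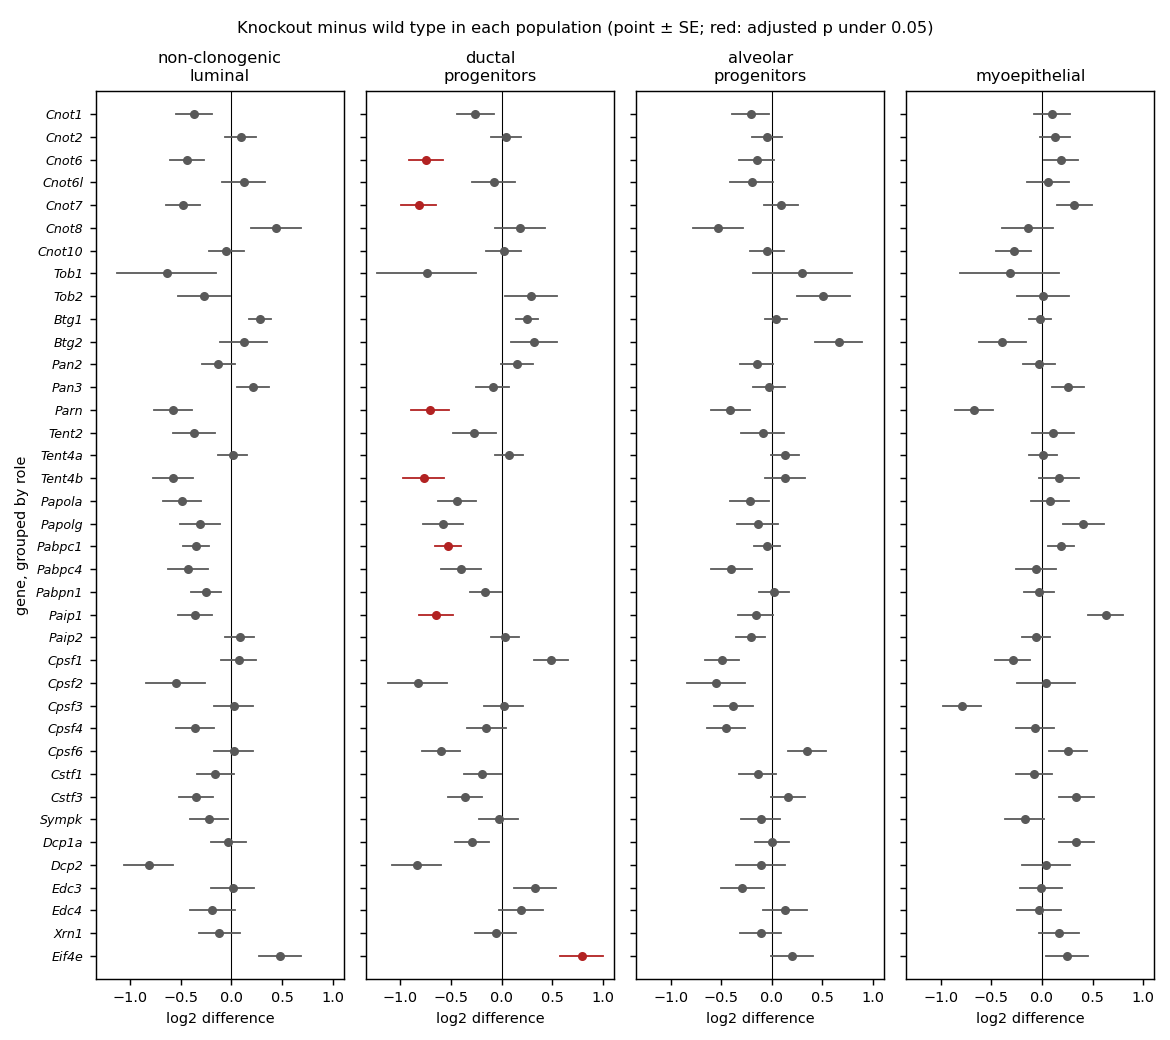
Log2 difference, knockout minus wild type, of each of the 38 genes in each population; points are fitted differences, bars are ± 1 SE, and red marks an adjusted p under 0.05. The 7 red points all lie in ductal progenitors, while in myoepithelial cells points lie on both sides of 0.

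In the other populations 0 of the 38 passed. In non-clonogenic luminal cells the background was 2.06% of all genes, and 9 of 38 had an unadjusted p under 0.05 by limma, against 2919 of 17097 genes. The median difference was -0.21, and the largest were Dcp2 (-0.82 ± 0.24), Tob1 (-0.64 ± 0.49), Tent4b (-0.58 ± 0.20) and Parn (-0.58 ± 0.19) on the lower side and Eif4e (0.48 ± 0.21) and Cnot8 (0.44 ± 0.25) on the higher side. Tent4b read 9.13 and 9.36 in wild type and 8.93 and 8.41 in knockout there. Cnot7 read 9.82 and 9.85 against 9.39 and 9.32, Cnot6 10.84 and 10.51 against 10.37 and 10.10, Pabpc1 11.91 and 11.99 against 11.76 and 11.45, and Paip1 9.56 and 9.58 against 9.20 and 9.23. The genotypes did not overlap for these 5 genes, which had been called in ductal progenitors, with adjusted p from 0.16 to 0.305. As 50.8% of all genes did not overlap there, nothing is read from it.

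In alveolar progenitors the background was 0.620%, 4 of 38 had an unadjusted p under 0.05 (10.5%, against 9.50% of all genes), and the median was -0.11. The anti-proliferative adaptor gene Btg2 read 10.84 and 11.18 in wild type and 11.54 and 11.80 in knockout (0.66 ± 0.23, adjusted p = 0.308), and the cleavage factor gene Cpsf1 10.66 and 10.53 against 10.05 and 10.15 (-0.49 ± 0.17, adjusted p = 0.294). In myoepithelial cells the background was 1.01%, 3 of 38 had an unadjusted p under 0.05 (7.89%, against 14.2% of all genes), and the median was 0.03. Cpsf3, the nuclease that cuts the RNA before the tail is added, read 8.87 and 9.39 in wild type and 8.25 and 8.43 in knockout (-0.79 ± 0.19, adjusted p = 0.0731). Paip1 read 8.54 and 8.40 against 9.30 and 8.89, so its knockout arrays were the higher ones in these cells (0.63 ± 0.17, adjusted p = 0.111). Without wild-type mouse 1, 2 of 38 genes passed in myoepithelial cells, and 8.14% of all genes did.

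Whether the knockout difference itself varied between populations was tested with an F test over all 4. It called 0 of 38 genes, against 0.667% of all genes, while 12 of 38 had an unadjusted p under 0.05 by limma and 2872 of 17097 genes did. The smallest adjusted p were those of Paip1 (0.0701) and Cnot7 (0.0884). Paip1 differed by -0.36, -0.65, -0.16 and 0.63 and Cnot7 by -0.48, -0.82, 0.09 and 0.32 in non-clonogenic luminal, ductal, alveolar and myoepithelial cells. So the falls in ductal progenitors were not shown to be particular to that population. The test called 2 of the 38 when wild-type mouse 2, or that animal's ductal array, was left out, and then 6.12% or 3.84% of all genes.

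The populations were then compared with each other in the mean of both genotypes, to ask where the machinery is expressed most. An F test called 17 of 38 genes, against a background of 49.8%. By role these were 4 of the 4 BTG/TOB adaptors, 5 of the 8 cleavage genes, 2 of the 3 other deadenylase genes, 2 of the 5 poly(A) polymerases, 1 of the 7 CCR4-NOT subunits (Cnot10), 1 of the 5 poly(A) binding genes (Paip1), 1 of the 5 decapping genes (Edc3), and Eif4e. Without knockout mouse 1 or 2 the F test called fewer of the 38, and it also called a smaller share of all genes. The population means of some genes that did not pass lay close together, with spans of 0.23 for Cnot7, 0.26 for Cnot6, 0.16 for Papola and Pabpc1, 0.17 for Xrn1 and 0.09 for Paip2. The widest spans were 1.75 for Tob1, 1.21 for Btg2, 1.03 for Cpsf3 and 0.79 for Parn.

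Myoepithelial cells differed from the mean of the luminal populations in 13 genes. Of the 38, 11 were lower, against 24.4% of all genes, and 2 were higher, against 23.5%. The median difference was -0.11, and over all genes 0.02. Without knockout mouse 2 the test called fewer of the 38, and also a smaller share of all genes. The endothelial markers averaged 6.40 to 7.57 in myoepithelial and 5.57 to 6.26 in luminal arrays, the pericyte markers 7.25 to 7.66 against 6.22 to 6.62, and 7 of 29 cell division genes were lower (median difference -0.63). Their part in these calls was not tested.

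Tob1 had the largest difference. It encodes an anti-proliferative protein that links the CCR4-NOT nucleases to the poly(A) binding protein. In myoepithelial cells it read 6.00 and 7.22 in wild-type mice 1 and 2 and 6.31 and 6.27 in knockout mice, while non-clonogenic luminal cells read 8.77 and 8.18, and 7.40 and 8.28. Ductal progenitors read 8.78 and 7.90 in wild type and 7.39 and 7.81 in knockout, and alveolar progenitors 7.50 and 8.61, and 8.00 and 8.70. Every myoepithelial array lay below every luminal one (-1.66 ± 0.28, 3.16-fold, adjusted p = 0.000328, lower in 4 of 4 mice), while arrays within a luminal population spread over more than 1 log2 unit. A dimmer probe set of Tob1 (mean 5.76) differed by -0.10 ± 0.12 and did not pass.

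Btg1, a related adaptor, was also lowest in myoepithelial cells, at 11.30 and 11.32 in wild type and 11.14 and 11.44 in knockout. It read 11.53, 11.52, 11.77 and 11.83 in non-clonogenic luminal cells, 11.50, 11.68, 11.85 and 11.84 in ductal progenitors, and 11.95, 11.96, 11.96 and 12.03 in alveolar progenitors, wild-type mice first. The myoepithelial arrays were below all others (-0.48 ± 0.06, adjusted p = 5.68e-05), and its other probe set passed in the same direction (-0.91 ± 0.15).

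Of the tail and cap enzymes, Pan2, the catalytic subunit of the PAN2-PAN3 deadenylase, read 7.06 and 6.84 in wild-type and 6.77 and 7.06 in knockout myoepithelial arrays and 7.24 to 7.76 in the luminal arrays, with no overlap (-0.56 ± 0.09, adjusted p = 0.00032). Its partner Pan3 had population means of 10.97 to 11.25 and did not pass (-0.13 ± 0.09), although another of its probe sets did (-1.63 ± 0.23). Parn was lower too (-0.56 ± 0.11, adjusted p = 0.000845), and so was its second probe set (-0.49 ± 0.12). The decapping activator Edc3 read 7.76 and 7.94 in wild-type and 7.86 and 7.82 in knockout myoepithelial arrays and 7.93 to 8.79 in luminal arrays (-0.66 ± 0.12, adjusted p = 0.000517), the lowest luminal array being wild-type ductal mouse 1.

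Cpsf3 read 8.87 and 9.39 in wild-type and 8.25 and 8.43 in knockout myoepithelial arrays, and 9.28 to 9.89 in the luminal arrays. The difference was -0.90 ± 0.11 (adjusted p = 2.05e-05), with wild-type mouse 2 inside the luminal range. Cnot10, a CCR4-NOT subunit of the complex's outer module, read 7.55 to 7.96 in myoepithelial and 8.14 to 8.50 in luminal arrays, without overlap (-0.55 ± 0.10, adjusted p = 0.000503). Paip1 (-0.50 ± 0.10), Papolg (-0.44 ± 0.11), Cnot1 (-0.32 ± 0.10) and Cnot2 (-0.27 ± 0.08) also passed, and their arrays overlapped. Means of Paip1, Papolg and Cnot1 lay further apart in wild type. Paip1 averaged 8.47 in myoepithelial and 9.2 to 9.67 in luminal wild-type groups, and 9.1 and 9.02 to 9.21 in knockout groups. For Papolg these were 6.75 and 7.39 to 7.75, and 7.16 and 7.16 to 7.27. For Cnot1 they were 8.34 and 8.72 to 9.01, and 8.44 and 8.46 to 8.63. The F test for a varying knockout effect called none of these genes. Cnot1 and Cnot2 lost their calls after quantile normalization, at -0.18 each. The 2 genes that were higher in myoepithelial cells were the polymerase gene Tent4a and Cstf3, a subunit of the cleavage stimulation factor. Tent4a read 8.47 to 8.52 against 8.06 to 8.39 in luminal arrays (0.30 ± 0.08, adjusted p = 0.00752). Cstf3 differed by 0.38 ± 0.10 (adjusted p = 0.00589), and it lay further apart in knockout. It averaged 8.5 in myoepithelial and 7.62 to 8.24 in luminal knockout groups, and 8.16 and 7.96 to 8.09 in wild type.

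**Figure D4:**
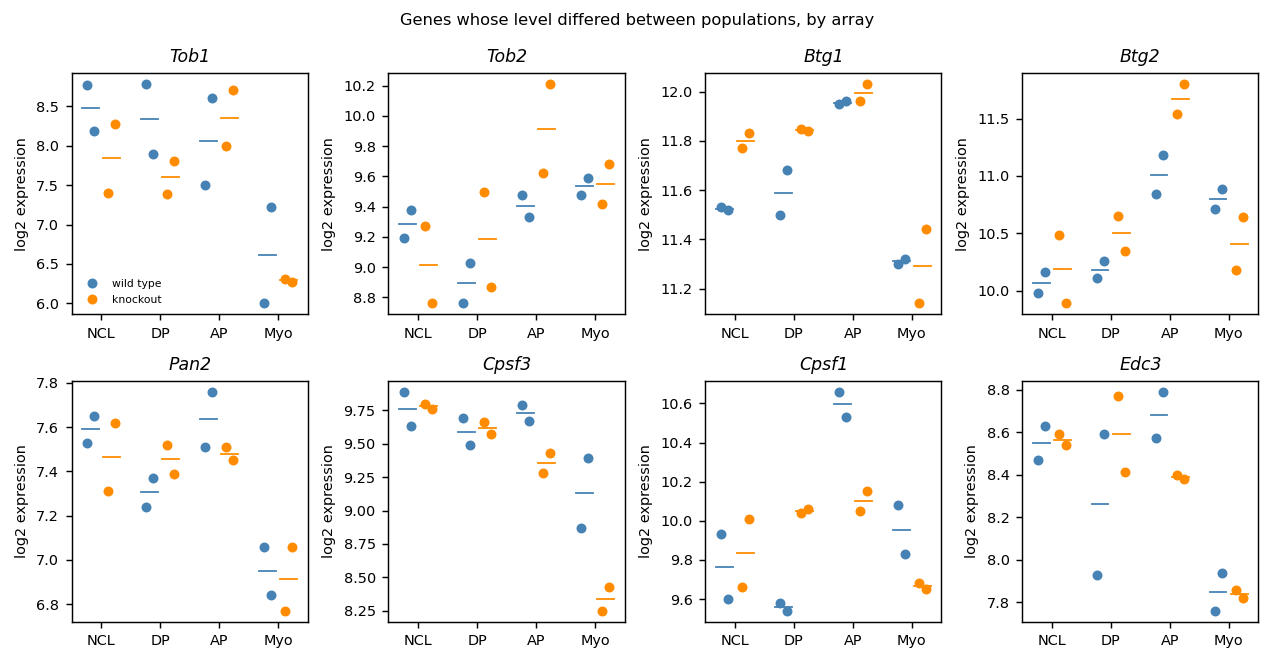
Log2 expression by array of 8 genes that passed the F test between populations, in non-clonogenic luminal cells (NCL), ductal progenitors (DP), alveolar progenitors (AP) and myoepithelial cells (Myo); points are arrays, lines are means of 2 arrays, and each panel has its own axis, which does not start at 0. Tob1, Btg1 and Pan2 are lowest in all myoepithelial arrays, and Btg2 is highest on average in alveolar progenitors.

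Alveolar progenitors were set against each of the Sca1+ luminal populations. Against non-clonogenic luminal cells, 6 of 38 genes were higher in alveolar progenitors, where 12.6% of all genes were, and 2 were lower, where 15.9% were. Against ductal progenitors 5 of 38 were higher in alveolar progenitors, with a background of 10.7%, and 0 were lower, with a background of 11.3%. Genes higher in alveolar progenitors in both comparisons were Btg2, Btg1, Cpsf1 and Cpsf4. The comparisons share the alveolar arrays. Of the fibroblast markers, 3 of 6 were higher and 0 lower in ductal than in alveolar progenitors (median difference 1.26). The part of these markers in the calls was not tested. Against ductal progenitors Btg1 passed in 8, Cpsf4 in 10 and Cpsf1 in 18 of 20 leave-out fits, and against non-clonogenic luminal cells in 18, 12 and 18.

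Btg2, an anti-proliferative adaptor that binds CNOT7 and CNOT8, had the largest difference. It read 10.84 and 11.18 in wild-type and 11.54 and 11.80 in knockout alveolar progenitors. Non-clonogenic luminal cells read 9.98 and 10.16, and 10.49 and 9.89, and ductal progenitors 10.11 and 10.26, and 10.65 and 10.35. Every alveolar array lay above every array of both Sca1+ populations. Non-clonogenic luminal minus alveolar was -1.21 ± 0.16 (2.31-fold, adjusted p = 9.46e-05) and ductal minus alveolar -1.0 ± 0.16 (adjusted p = 0.000611), and both stayed past the test in 20 of 20 leave-out fits. The second probe set of Btg2 gave -1.20 ± 0.17 and -0.93 ± 0.17. Myoepithelial cells read 10.71, 10.89, 10.18 and 10.64, and their difference from the luminal mean was 0.00 ± 0.13.

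Btg1 differed by -0.31 ± 0.08 and -0.26 ± 0.08 in the same 2 comparisons, with the arrays apart in both. Tob2, which read 9.33 to 10.21 in alveolar and 8.76 to 9.50 in ductal progenitors, passed against ductal progenitors (-0.62 ± 0.18, adjusted p = 0.0288) and missed the threshold against non-clonogenic luminal cells (-0.51 ± 0.18, adjusted p = 0.0548). Of its 4 other probe sets, 3 passed against ductal progenitors (-0.60 to -0.86). Without knockout mouse 2 the Tob2 difference was -0.31, and it passed in 12 of 20 leave-out fits. Tob2 in myoepithelial cells, at 9.42 to 9.68, lay inside the alveolar range. The Tob1 differences in the same comparisons were smaller than their error (-0.05 ± 0.34 and -0.23 ± 0.34).

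Among the cleavage factors, Cpsf1, the largest subunit of the complex that reads the poly(A) signal, read 10.66 and 10.53 in wild-type and 10.05 and 10.15 in knockout alveolar progenitors. It read 9.93 and 9.60, and 9.66 and 10.01, in non-clonogenic luminal cells and 9.58 and 9.54, and 10.04 and 10.06, in ductal progenitors. The differences were -0.55 ± 0.11 (adjusted p = 0.00316) and -0.54 ± 0.11 (adjusted p = 0.00444), and the populations lay further apart in the wild-type than in the knockout arrays, a contrast of genotypes that the F test above did not call. Cpsf4, which contacts the poly(A) signal, differed by -0.42 ± 0.13 and -0.44 ± 0.13. Cpsf6 (-0.43 ± 0.13) and Cstf3 (-0.38 ± 0.12) passed against non-clonogenic luminal cells, with arrays apart. Both lay further apart in knockout. Cstf3 averaged 7.62 in non-clonogenic luminal cells and 8.24 in alveolar progenitors of knockout mice, and 7.96 and 8.09 in wild type. Cpsf6 averaged 5.94 and 6.53 in knockout, and 5.92 and 6.19 in wild type. The F test above called neither gene. The 2 genes lower in alveolar progenitors than in the non-clonogenic cells were Eif4e (0.62 ± 0.14, adjusted p = 0.0059, arrays apart) and Parn (0.43 ± 0.13, adjusted p = 0.0271), both of which had also passed the mean knockout test, where Parn fell and Eif4e rose. Without knockout mouse 1 or 2, these comparisons called 3 or 1 genes against non-clonogenic luminal cells and 2 or 1 against ductal progenitors. Single alveolar, ductal or non-clonogenic arrays took the counts down to 4 and 2.

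Non-clonogenic luminal cells and ductal progenitors, which differ by CD49b, were not told apart by any of the 38 genes. The test called 0, with a background of 0.795%, and 0 of 38 had an unadjusted p under 0.05 by limma, against 6.42% of all genes. The largest differences were those of Cnot8 (-0.35 ± 0.18), Edc4 (0.29 ± 0.15) and Eif4e (0.29 ± 0.14).

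In all, 24 of the 38 genes passed at least 1 of these tests, where 61.8% of all genes did, and 14 passed none. Of those 14, Papola, Pabpc4 and Cpsf2 passed the mean knockout test with the parent pair as a block. The nuclease genes Cnot6l and Cnot8 read 9.62 to 10.47 and 7.83 to 8.91 over the 16 arrays, Pan3 10.69 to 11.44, and the polymerase genes Tent2 and Papola 7.75 to 8.65 and 10.41 to 11.29. Pabpc4 read 9.58 to 10.28, the nuclear poly(A) binding protein gene Pabpn1 11.21 to 12.01, and Paip2 11.18 to 11.62. Paip2 had the narrowest spread of these genes and Cpsf2 the widest. In cleavage, Cpsf2 read 7.06 to 8.64, Cstf1, of the cleavage stimulation factor, 8.37 to 8.95, and the scaffold gene Sympk 6.59 to 7.26. The decapping activators Dcp1a and Edc4 read 6.96 to 7.62 and 8.65 to 9.60, and the 5′ to 3′ exonuclease gene Xrn1 8.30 to 8.77. Their mean knockout differences were 0.00 ± 0.09, 0.02 ± 0.12 and -0.03 ± 0.10, each smaller than its error.

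Of 79 other genes of the same pathways, 68 were measured. In the mean knockout comparison 8 of them fell and 0 rose, where 7.04% and 3.18% of all genes did. Lsm3 (-1.11 ± 0.20) and Lsm2 (-0.78 ± 0.17), which belong to rings that bind RNA 3′ ends and spliceosomal RNA, and Exosc8 (-0.96 ± 0.12) and Exosc9 (-0.70 ± 0.16), subunits of the 3′ to 5′ exosome, had the largest falls. In ductal progenitors 5 fell and 1 rose, against 4.35% and 3.09% of all genes, among them Exosc8 (-1.22 ± 0.23), the cleavage factor gene Cstf2t (-1.14 ± 0.25) and the exosome nuclease gene Dis3 (-1.01 ± 0.24), while the helicase gene Skiv2l of the exosome's cytoplasmic partner complex rose (0.89 ± 0.22). Exosc8 read 9.19 and 8.83 in wild-type and 7.76 and 7.69 in knockout non-clonogenic luminal cells, the only one of the 68 called there (-1.29 ± 0.23, adjusted p = 0.0216). The CCR4-NOT subunit gene Cnot9 was the only one called in alveolar progenitors, at 8.03 and 8.19 in wild type and 7.10 and 7.23 in knockout (-0.94 ± 0.18, adjusted p = 0.0422). The mitochondrial deadenylase gene Pde12 was the only one in myoepithelial cells, at 8.04 and 7.85 against 8.75 and 8.94 (0.90 ± 0.17, adjusted p = 0.0307).

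Between populations, 16 of the 68 were higher and 16 lower in myoepithelial than in luminal cells, close to the shares of all genes (23.5% and 24.4%). Tent5b, of a family of non-canonical poly(A) polymerases, was higher by 2.55 ± 0.14, and Lsm6 (-1.43 ± 0.12), the scavenger decapping enzyme gene Dcps (-1.16 ± 0.11) and the exosome subunit gene Exosc5 (-1.03 ± 0.19) were lower. Tent5b separated the luminal populations too, with 7.59 to 8.56 in alveolar progenitors and 4.95 to 5.44 in non-clonogenic luminal cells (-2.93 ± 0.17). In that comparison 8 of the 68 were higher and 17 lower in non-clonogenic luminal cells, where 15.9% and 12.6% of all genes were, including Zfp36l2 (-1.58 ± 0.28), a protein that brings deadenylases to AU-rich elements, Dis3 (-1.12 ± 0.17) and Exosc8 (-1.09 ± 0.16). Cpeb2 ran the opposite way: non-clonogenic luminal minus alveolar was 2.44 ± 0.28 in the mean of both genotypes.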

How the data were processed

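RNA from the sorted cells (15 ng amplified, 8 µg of cDNA labelled, per the labels' protocols) was read on Affymetrix arrays. The deposited values are log2 expression per probe set, 45141 in all. The submitters' processing notes name RMA and limma; the sources give neither their role nor version, nor a genome build. Probe sets were named through the supplied annotation: 28898 had 1 symbol, 551 several and 15588 none. Array number limits the precision. The p-values rest mainly on the spread between the 2 mice within each group, pooled over all 8 groups. The fit estimated a low correlation between arrays of one mouse (0.0383), so it counted them as nearly independent. For the mean knockout effect the p-values are therefore not a plain comparison of 2 mice with 2 mice.

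All 16 arrays entered one limma fit (version 3.58.1, R 4.3.3, statmod 1.5.0) with 8 group means, the mouse as random block (correlation 0.0383) and eBayes with trend, with Benjamini-Hochberg adjustment over 17097 genes. The scripts were tested on simulated data. Members and lists were chosen with earlier results of these data known. Any member may be named; array values are given for members called in a knockout comparison, those of the F test between populations with the widest means, and related pairs, and each comparison may name its 4 largest rises and falls. Other pathway genes are named where called, the 4 largest per comparison. The listed name Symplk was read as Sympk.

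Labels give shared parents for the mice numbered alike, so a parent-pair block was an alternative. Deviations of arrays of the same parents correlated at 0.07, -0.01, 0.06 and -0.04 in the 4 populations. Other alternatives were quantile normalization, leaving out dim genes, the mean of all probe sets, no mouse block, no trend, array weights, single-population fits and leave-outs.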

Additional observations from a re-analysis of the deposited data

How the results depend on the processing

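Of the 53 named calls in the knockout and population comparisons, 17 came from the F test between populations, which has no direction. None of the others changed direction under any alternative run. All 53 kept their call when dim genes were left out, without the trend and without the mouse block, 51 with the parent-pair replicate block, 48 after quantile normalization, 45 with array weights and 41 with the mean of all probe sets. For the mean knockout effect the count of 3 became 5 without the mouse block and 9 with the paired fit. For ductal progenitors the count of 7 became 3 with the mean of all probe sets, 2 with array weights and 0 from the 4 ductal arrays alone. The test of a varying knockout effect called 1 without the trend. The paired fit changed no other count by over 1.5 times.

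Leaving out a mouse or an array gave 0 to 7 calls for the mean knockout effect, 0 to 9 in ductal progenitors, 0 to 2 in myoepithelial cells and 0 to 2 for the varying knockout effect. It gave 5 to 21 for the F test between populations, 8 to 16 for myoepithelial against luminal cells, 1 to 9 for non-clonogenic luminal against alveolar cells and 1 to 6 for ductal against alveolar progenitors. The lowest count in each of the last 4 ranges came without knockout mouse 2, where the share of all genes called was lower too. Why these counts moved was not tested, beyond the fewer arrays of each such fit.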
